A study of Mus musculus with 2 samples.

Results

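Potassium channel genes were examined in the developing mouse ureter as every gene on the array whose name starts with Kcn, which takes in the pore-forming subunits and most auxiliary subunits. The name matched 136 of the 39429 probes that are not controls, and these probes represent 94 of 31835 genes, where a probe without a gene name counts as a gene of its own. A further Kcn gene was not analysed here. RNA came from ureters dissected from NMRI embryos at E14.5 (days of gestation). The Smad4cKO embryos were Tbx18(cre/+);Smad4(fl/fl), in which Cre made from the Tbx18 locus deletes Smad4, the shared SMAD partner of BMP and TGFB signalling, from the mesenchyme that forms the ureter's muscle coat. Control embryos were Tbx18(+/+);Smad4(fl/+), so they carried a floxed Smad4 allele too, but no Cre. Each of 2 two-colour arrays set an Smad4cKO RNA against a control RNA, from females on array 1 and from males on array 2, with 200 ng of total RNA per channel. On array 1 the Smad4cKO RNA was in green and the control RNA in red, and on array 2 the dyes were exchanged, so dye orientation and sex cannot be told apart. The Cre allele and the loss of Smad4 cannot be told apart either. The labels do not give the number of embryos or litters behind an RNA. Errors measure only the spread between these arrays, and mostly that spread pooled over all tested genes.

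Potassium channels are membrane pores that let potassium leave the cell along its gradient, which keeps the membrane potential negative and ends action potentials. In smooth muscle, that of the ureter included, they set how easily a cell fires the calcium spikes behind a contraction, and in neurons they shape the timing of firing. Some open with depolarization, some with intracellular calcium or sodium, and some leak at rest, while auxiliary subunits alter how the pores open and how many reach the membrane.

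The sequences that the main results rest on are shown first. The array measured each gene with oligonucleotides of 60 bases, of which the first 30 are given here for Kcnk3, measured by 1 probe, and for Kcnd3 and Kcnma1, each measured by several. Positions follow the scanner files, in build mm9. The Kcnk3 probe lies at chr5:30927090-30927149 on the plus strand. The tested Kcnd3 probe lies at chr3:105476854-105476913 (plus strand), and the other one at chr3:105471938-105471997 (plus strand). Of the Kcnma1 probes, all on the minus strand, the brightest lies at chr14:24118701-24118760, probe A at chr14:24130916-24130975 and probe B at chr14:24126279-24126338. No mm9 gene annotation was used here, so exon positions are not given.
Kcnk3 tested probe: ctgggaaatccttaggtggaaggaatctgg
Kcnd3 tested probe: tactgagtcctgtgccactgctgtacctga
Kcnd3 probe not well above background: taatttgaaagcagacgatggactgagacc
Kcnma1 brightest probe: agattccttgatgcacatttctcttctttc
Kcnma1 probe A: tggtgatctgttctgcaaagctctgaaaac
Kcnma1 probe B: tgggtgggcagtcaatgtatacatgtaaat

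The 250 bases before the transcription start were available from RefSeq (build GRCm38.p6) for 3 of the 4 genes with the largest differences. They are shown because SMAD proteins, the partners of the deleted gene's product, bind short motifs in promoters. The window of Kcnd3 lies at chr3:105451640-105451889 (plus strand) and that of Kcnma1 at chr14:24004206-24004455 (minus strand). Kcns3 has 2 listed starts, with windows at chr12:11150843-11151092 and chr12:11150374-11150623 (minus strand). Each is written 5′ to 3′ in the direction of the gene. Capitals mark CAGAC on either strand (GTCTG where it is on the other strand) and GGCGCC, which reads the same on both strands. No window shown holds both motifs, and the probes above were not marked.
Kcnd3 upstream window: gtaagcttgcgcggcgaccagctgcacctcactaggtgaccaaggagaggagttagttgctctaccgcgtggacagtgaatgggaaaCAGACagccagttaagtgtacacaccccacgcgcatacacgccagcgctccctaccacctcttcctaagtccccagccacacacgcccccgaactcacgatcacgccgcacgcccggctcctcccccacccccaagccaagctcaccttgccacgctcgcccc
Kcnma1 upstream window: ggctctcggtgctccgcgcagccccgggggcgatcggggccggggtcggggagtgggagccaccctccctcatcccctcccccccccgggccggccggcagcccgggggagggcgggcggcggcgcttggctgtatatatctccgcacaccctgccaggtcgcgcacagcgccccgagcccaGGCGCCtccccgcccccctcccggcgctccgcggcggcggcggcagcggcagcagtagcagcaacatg
Kcns3 upstream window of the more upstream start: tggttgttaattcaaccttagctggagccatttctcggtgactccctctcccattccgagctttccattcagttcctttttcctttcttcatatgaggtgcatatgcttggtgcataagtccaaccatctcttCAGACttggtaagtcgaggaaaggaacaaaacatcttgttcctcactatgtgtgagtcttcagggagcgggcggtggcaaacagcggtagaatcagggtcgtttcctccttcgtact
Kcns3 upstream window of the more downstream start: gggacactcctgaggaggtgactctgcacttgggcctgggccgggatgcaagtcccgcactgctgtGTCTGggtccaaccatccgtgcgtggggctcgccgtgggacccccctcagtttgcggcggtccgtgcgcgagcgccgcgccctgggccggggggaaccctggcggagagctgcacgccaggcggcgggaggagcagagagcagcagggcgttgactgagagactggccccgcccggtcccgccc

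CAGAC was found in 3 of these 4 windows and GGCGCC in 1. Among all 32851 windows of 27025 genes, 42.2% held CAGAC, against 46.4% of the 69 windows of tested potassium channel genes. For GGCGCC the shares were 15.9% of the windows of tested potassium channel genes and 9.59% of all windows. The CArG box, a motif known from smooth muscle genes, was in 0 windows of the tested potassium channel genes and in 1.47% of all windows. These are matches of letters in short windows, and nothing about the binding of a factor was measured.

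Many potassium channel genes were detected. To be tested, a probe had to be well above background, by the scanner software's flag, on array 1 and array 2 in 1 labelled group at least. This held for 89 of the 136 probes (65.4%), against 67.6% of all probes, and gave 69 tested genes among 21238. In every channel 86 probes were well above background, and in at least 1 channel 95 were. Where a gene had several tested probes, the brightest stood for it, and 18 genes had more than 1. In 14 of these the probes' mean ratios had the same sign, and the median spread between probes was 0.06 on the log2 scale.

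All 5 KCNQ pore genes were tested, as were 14 of 17 Shaker-type voltage-gated pores, 7 of 8 ether-a-go-go pores and 11 of 14 leak channels with 2 pore domains. The calcium- and sodium-activated pores had 6 of 8 genes tested, the inward rectifiers 8 of 14, the modifier voltage-gated subunits 6 of 10 and the auxiliary subunits 10 of 16. The remaining names were Kcnrg and the noncoding Kcnq1ot1, both tested. Of the 25 genes not tested, 20 were well above background in no channel. Several of these are known from heart, kidney or pancreas, among them Kcnj1, the renal inward rectifier, Kcnj11, the pore of the pancreatic ATP-sensitive channel, and the cardiac auxiliary subunit genes Kcne1 and Kcnip2. The other 16 were Kcna2, Kcna10, Kcnab2, Kcne2, Kcng1, Kcng3, Kcng4, Kcnh6, Kcnj5, Kcnj6, Kcnj9, Kcnk10, Kcnmb2, Kcnmb3, Kcnn1 and Kcns2. Kcnb2, Kcnj3, Kcnk12, Kcnk18 and Kcnt1 were well above background in some channels but did not meet this rule.

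**Figure D1:**
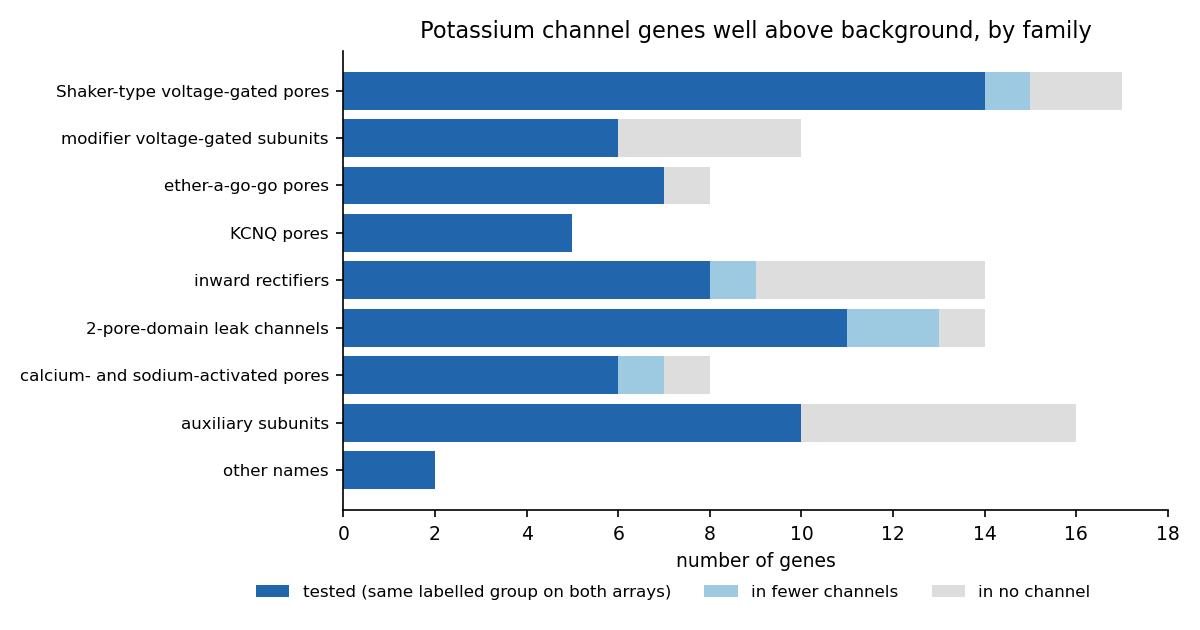
Number of potassium channel genes in each family (horizontal axis) that were tested, were well above background in fewer channels, or were well above background in no channel. Every KCNQ pore gene was tested, while 6 of 14 inward rectifiers and 6 of 16 auxiliary subunit genes were not.

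All ratios are given as the channel labelled Smad4cKO over the channel labelled control, by the dye labels. The authors' deposited table holds, by the same labels, control over Smad4cKO, under titles that name Smad4cKO first, so a reader who goes by the titles gets the inverse of every ratio below. The targeted locus did not settle this. The Smad4 probes gave log2 ratios of -0.69 and -0.31 on array 1 and -0.14 and -0.49 on array 2, and since the labels do not say which part of the gene is deleted, the probes may lie outside it. Tbx18, the locus that holds Cre, gave 0.07 and 0.81. Should the dye labels be exchanged on array 1 and array 2 alike, brighter and dimmer below change places and the sizes and tests stay as they are. Between 68.3% and 70.3% of the spots in each channel were well above background, and 0 potassium channel spots were saturated. Of the lists that check the labelled tissue, all 14 urothelial and all 7 ureteric mesenchyme markers were well above background, and so were 7 of 8 kidney markers.

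Among the 69 tested genes, 21 were brighter on both arrays in the channel labelled Smad4cKO, 25 were dimmer on both, and 23 had signs that differed between the arrays. Over all tested genes, 19.9% were brighter on both, 19.8% were dimmer on both and 60.3% had differing signs. At a difference of at least 1.5-fold on each array, 1 of the 69 potassium channel genes was brighter, against 0.49% of all tested genes. Dimmer by this rule were 3 of the 69, against 0.523% of all tested genes. The brighter gene was Kcnk3, and the dimmer genes were Kcnd3, Kcnma1 and Kcns3. No gene of the family, 0 of 69, passed 1.5-fold in opposite directions, against 1.25% of all tested genes. In whole tissue RNA, fewer cells of a type and less RNA per cell cannot be told apart.

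With limma, which adjusts p over all 21238 genes, 0 potassium channel genes were called brighter and 0 dimmer at an adjusted p under 0.05, and the lowest adjusted p was 0.0767. Over all tested genes limma called 0% brighter and 0.00471% dimmer. At an unadjusted limma p under 0.05, 4 of the 69 potassium channel genes were brighter, against 2.14% of all tested genes. Dimmer at this threshold were 9 of the 69, against 2.97% of all tested genes. Other processing gave between 0 and 4 limma calls brighter and between 0 and 7 dimmer. The median log2 ratio of the 69 genes was -0.01, with -0.04 on array 1 and 0.0020 on array 2, and that of all tested genes was 0.0047. The median size of the mean log2 ratio, without its sign, was 0.16 for potassium channel genes and 0.07 for all tested genes. On the arrays taken singly it was 0.19 and 0.14 for potassium channel genes, and 0.14 and 0.13 for all tested genes.

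**Figure D2:**
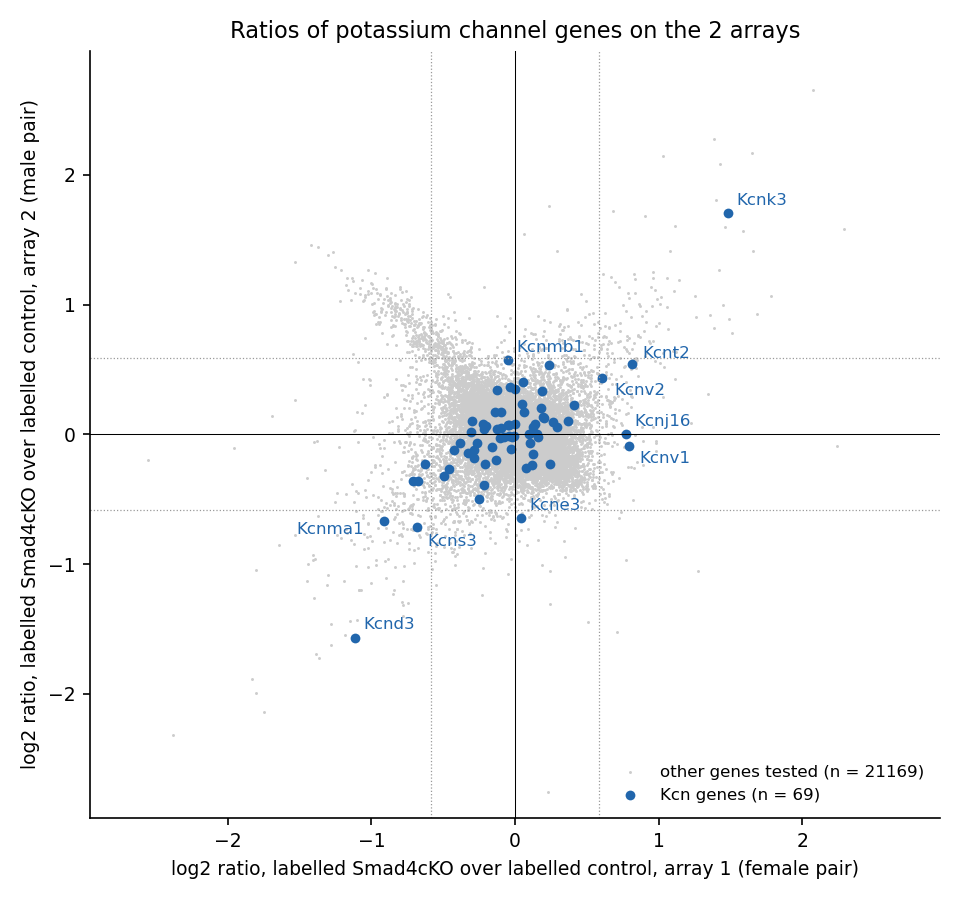
Log2 ratio of the channel labelled Smad4cKO over the channel labelled control on array 1 (female pair, horizontal axis) and array 2 (male pair, vertical axis), with potassium channel genes in blue, other tested genes in grey and dotted lines at 1.5-fold. Kcnk3 lies at 1.48 and 1.70 and Kcnd3 at -1.11 and -1.57, apart from the other potassium channel genes, most of which lie between the dotted lines.

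Leak channels with 2 pore domains set the resting potential, and among them Kcnk3 stood apart. It encodes the acid-sensitive leak channel TASK1, known from arterial smooth muscle and chemosensing cells. Its probe had normalised intensities of 852 on array 1 and 924.2 on array 2 in the channels labelled Smad4cKO, against 305.2 and 283.6 in the channels labelled control. Both Smad4cKO values lay above both control values, and the arrays differed little from each other. Intensities were not scaled between arrays, so overlap of the groups is described here and below but was not tested. It was not counted over all tested genes either. Errors of mean log2 ratios are limma's SE here and below. The log2 ratio was 1.48 on array 1 and 1.70 on array 2 (limma mean 1.59 ± 0.14, n = 2, adjusted p = 0.0767), or 3.02-fold. It has 1 probe on the array, so no other probe bears on the value. With 5 of the alternative settings Kcnk3 passed limma's threshold, among them Feature Extraction's processed signals (1.98, limma adjusted p = 0.000206) and the authors' deposited table (1.99, 0.00264). These 2 are not independent, since the table correlated with the processed red over green ratios at 0.99 on array 1 and -0.99 on array 2. With the other settings it did not pass, with a limma adjusted p of 0.0878 with outlier spots kept and 0.999995 with median centring.

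The other 10 tested leak channel genes had mean log2 ratios between -0.28 and 0.09, and the family median was -0.02. Kcnk2, the mechanically gated channel TREK1, gave -0.43 and -0.12 and was the furthest from 0 of these. Kcnk1, the weakly rectifying TWIK1, had 5666 and 6188 in the channels labelled Smad4cKO and 6090 and 6325 in the channels labelled control, a log2 ratio of -0.10 and -0.03. Kcnk9, encoding the closely related acid-sensitive channel TASK3, gave -0.01 on both arrays, and the pH-sensitive Kcnk5 gave -0.02 on both. These genes showed no difference of the size seen for Kcnk3.

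**Figure D3:**
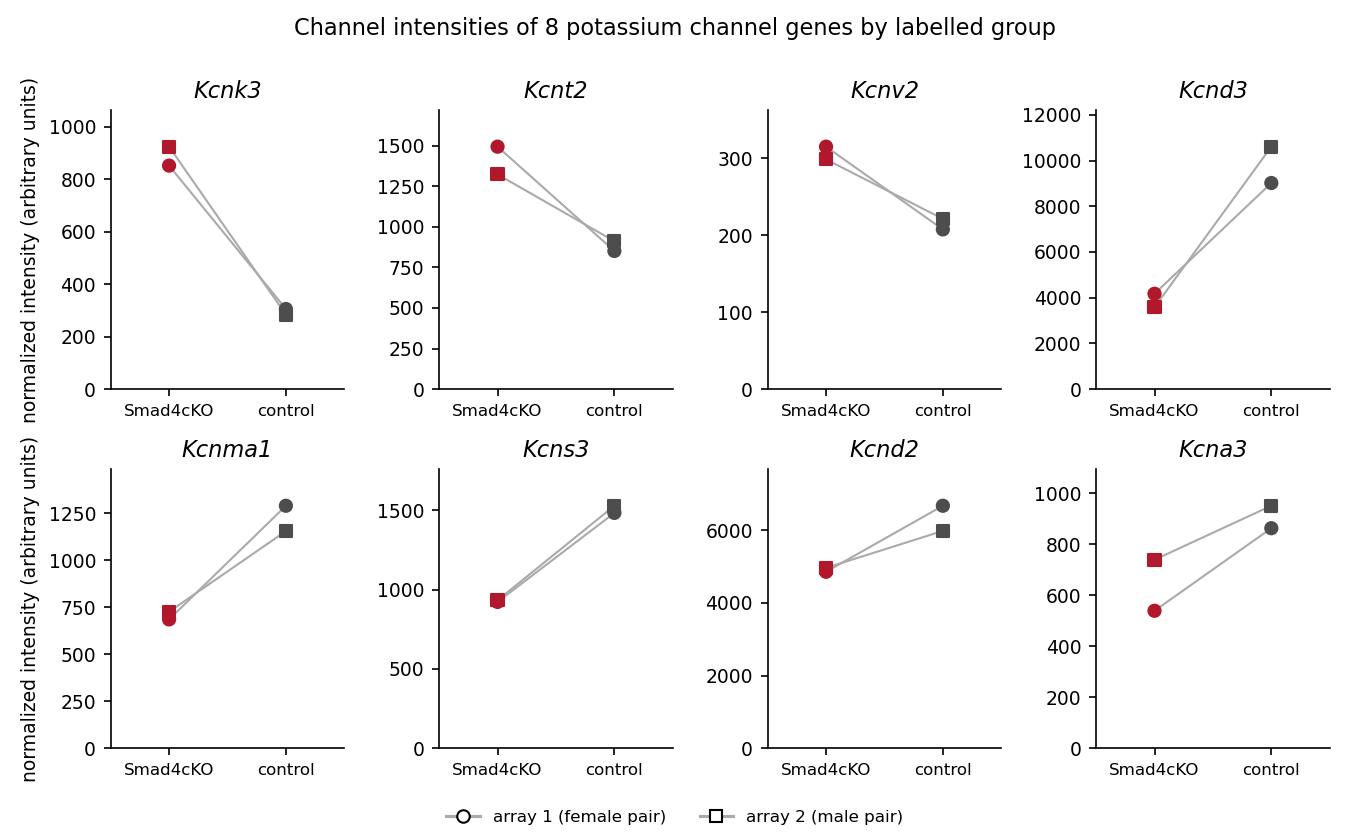
Normalised intensity (vertical axes, arbitrary units, starting at 0, each gene on its own scale) of 8 potassium channel genes in the channel labelled Smad4cKO (left, red) and the channel labelled control (right, grey), with lines joining the channels of array 1 (circles) and array 2 (squares). Kcnk3, Kcnt2 and Kcnv2 are brighter and Kcnd3, Kcnma1, Kcns3, Kcnd2 and Kcna3 dimmer on both arrays in the channel labelled Smad4cKO.

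The Shaker-type family holds the classical voltage-gated pores, and its Kv4 members carry fast, transient A-type current. Kcnd3, which encodes Kv4.3, had normalised intensities of 4172 and 3581 in the channels labelled Smad4cKO, against 9019 and 10610 in the channels labelled control. The groups did not overlap, and the control intensities were more than 2 times the Smad4cKO intensities on each array. Its log2 ratio was -1.11 on array 1 and -1.57 on array 2 (limma mean -1.34 ± 0.16, n = 2, adjusted p = 0.107), or 2.53-fold brighter in the labelled control. The other Kcnd3 probe, about 5 kilobases away in the same orientation, was not well above background in any channel, with 84.4 and 83.4 in the channels labelled Smad4cKO and 80.7 and 85.4 in the channels labelled control. The value therefore rests on 1 probe.

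Kcnd2, encoding Kv4.2, had 4856 and 4964 in the channels labelled Smad4cKO, against 6674 and 5981 in the channels labelled control. Both Smad4cKO values lay below both control values, with log2 ratios of -0.46 and -0.27 (limma mean -0.36 ± 0.14, n = 2, adjusted p = 0.86). Kcnd1, encoding Kv4.1, gave 0.15 and 0.0020. The calcium-sensing KChIP subunits, which bind Kv4 pores and slow their inactivation, had values of both signs. Kcnip1 gave 0.18 and 0.33, Kcnip3, known also as the transcriptional repressor DREAM, gave 0.41 and 0.22, and Kcnip4 gave -0.33 and -0.14. Another probe of Kcnip3 gave 0.11 and 0.25, and another of Kcnip4 gave -0.16 and -0.23. Outside the Kcn names, Dpp6, a membrane protein that partners Kv4 pores, had 2054 and 1975 in the channels labelled Smad4cKO and 2869 and 2941 in the channels labelled control. Dpp6 thus gave -0.48 and -0.57 (limma mean -0.53 ± 0.13, n = 2, adjusted p = 0.425), and its relative Dpp10 gave -0.08 and -0.13.

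The other Shaker-type pores showed smaller differences. Of the 14 tested genes of this family, 3 were brighter on both arrays, 6 dimmer on both and 5 of differing sign, with a median of -0.09. Kcna3, encoding Kv1.3, the channel of T lymphocytes, had 538 and 738 in the channels labelled Smad4cKO, against 862 and 950 in the channels labelled control. Its log2 ratio was -0.68 on array 1 and -0.36 on array 2 (limma mean -0.52 ± 0.15, n = 2, adjusted p = 0.519). Kcna5, a delayed rectifier of vascular smooth muscle and heart, was in the other direction with 0.19 and 0.13, and another Kcna5 probe gave 0.05 and 0.32. The Kv3 genes Kcnc1, Kcnc2 and Kcnc4, known from fast-spiking neurons, had mean log2 ratios between -0.10 and 0.14. The 3 tested probes of Kcna6 disagreed in sign, with means between -0.16 and 0.03.

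Modifier subunits form no channel alone and join other voltage-gated pores. Kcns3, known from pulmonary artery muscle of the rat, had normalised intensities of 921.8 and 932.2 in the channels labelled Smad4cKO, against 1483 and 1528 in the channels labelled control. The groups did not overlap and the arrays gave nearly the same ratio, -0.69 and -0.71 (limma mean -0.70 ± 0.13, n = 2, adjusted p = 0.233), or 1.62-fold brighter in the labelled control. Kcnv2, known from photoreceptors, had 315 and 299 in the channels labelled Smad4cKO and 208 and 221 in the channels labelled control, with log2 ratios of 0.60 and 0.43 (limma mean 0.52 ± 0.13, n = 2, adjusted p = 0.471). Kcnf1 gave -0.25 and -0.50 and was well above background in 3 of the 4 channels. Another probe of Kcnf1 was not well above background in any channel. Kcns1 gave -0.38 and -0.07, and Kcng2 gave 0.14 and 0.08. Kcnv1 was brighter on array 1 alone, with 0.80 and -0.09. Amigo1, an adhesion protein that accompanies voltage-gated pores, gave 0.05 and -0.01.

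Channels opened by intracellular calcium couple calcium entry to repolarization, and those opened by sodium are grouped with them here. Kcnma1 encodes the pore of the large-conductance BK channel, which limits contraction in many smooth muscles. Its brightest probe had 685.8 and 726.4 in the channels labelled Smad4cKO, against 1291 and 1156 in the channels labelled control. The groups did not overlap, and the log2 ratio was -0.91 on array 1 and -0.67 on array 2 (limma mean -0.79 ± 0.14, n = 2, adjusted p = 0.206), or 1.73-fold brighter in the labelled control. The other Kcnma1 probes shown above went the same way, probe A with -0.63 and -0.46 and probe B with -0.59 and -0.60, and the mean over the gene's probes was -0.64. Kcnmb1, the BK subunit typical of smooth muscle, gave -0.05 and 0.57, with signs that differed. Kcnmb4, the BK subunit typical of neurons, gave -0.04 and -0.02. Of the other BK partners, Lrrc38 gave -0.01 and -0.08 and Lrrc55 -0.07 and 0.03, while Lrrc26 and Lrrc52 were not tested.

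Kcnt2, the sodium-activated channel Slick, lay just under the 1.5-fold rule. Its brightest probe had 1494 and 1323 in the channels labelled Smad4cKO, against 851 and 911.2 in the channels labelled control, a log2 ratio of 0.81 and 0.54 (limma mean 0.68 ± 0.14, n = 2, adjusted p = 0.283). These groups did not overlap, but the probes disagreed in size on array 1, where the other Kcnt2 probe gave 0.07, against 0.52 on array 2. That other probe had 160.5 and 168.8 in the channels labelled Smad4cKO, against 153 and 117.3 in the channels labelled control. It was not well above background in the control channel of array 2. With the mean of its probes Kcnt2 gave 0.49. Among the small-conductance channels, Kcnn2 gave 0.05 and 0.41. Kcnn3 gave -0.12 and 0.34, and its other probe 0.05 and -0.35. Kcnn4, the intermediate-conductance channel of blood and epithelial cells, gave -0.29 and -0.18.

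KCNQ pores carry the M-current that restrains repeated firing of neurons, and some act in smooth muscle and epithelia. Of the 5 tested genes 2 were brighter on both arrays, 2 dimmer on both and 1 of differing sign. Kcnq3, a subunit of the neuronal M-channel, had 255 and 280 in the channels labelled Smad4cKO and 216 and 194 in the channels labelled control, or 0.23 and 0.53 (limma mean 0.38 ± 0.14, n = 2, adjusted p = 0.866). In Kcnq3 both Smad4cKO values lay above both control values. Kcnq5 gave -0.22 and -0.39, on 1 tested probe of 2. Kcnq1 of heart and epithelia gave -0.20 and 0.06. The noncoding Kcnq1ot1, transcribed against Kcnq1 on the paternal chromosome, gave 0.07 and -0.26 with its brighter probe and -0.81 and -0.13 with the other.

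Ether-a-go-go pores, which include the cardiac repolarizing channel, were the family with the most genes brighter on both arrays, 5 of 7, with a median of 0.12. Of all tested potassium channel genes 21 of 69 were brighter on both, and of all tested genes 19.9%. The ratios were small: Kcnh2, that cardiac channel, gave 0.0009 and 0.35, Kcnh3 0.29 and 0.06, and Kcnh7 0.20 and 0.12. Kcnh4 gave 0.10 and 0.0002, so Kcnh2 and Kcnh4 each lay near 0 on 1 array. Kcnh1 was the 1 gene dimmer on both, with -0.27 and -0.07. The lowest limma adjusted p of these 7 genes was 1 when rounded, and no member passed limma's threshold under any setting run.

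Inward rectifiers pass potassium most easily at negative potentials and hold cells near rest. Of 8 tested genes, 2 were brighter on both arrays, 3 dimmer on both and 3 of differing sign, with a median of 0.03. Kcnj2 and Kcnj12, both known from muscle, were dimmer on both arrays in the channel labelled Smad4cKO, with -0.21 and -0.23, and -0.50 and -0.32. Signs differed for Kcnj4, with -0.10 and 0.18, and for Kcnj14, with -0.03 and 0.37. Another probe of Kcnj14 gave 0.18 and 0.10. Kcnj12 had 147 and 136 in the channels labelled Smad4cKO and 207 and 170 in the channels labelled control, values close to background, and was not well above background in every channel. Kcnj10, known from glia and kidney, gave 0.37 and 0.10. Its partner Kcnj16 gave 0.77 on array 1 and 0.0021 on array 2, with 3870 and 2492 in the channels labelled Smad4cKO and 2267 and 2489 in the channels labelled control, so its difference was that of the female pair. For the ATP-sensitive channel's sulfonylurea receptor subunits, Abcc9, the form of smooth muscle, gave -0.13 and -0.26, and Abcc8, the form of neurons and pancreas, gave -0.05 and -0.36.

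The auxiliary subunits had 10 tested genes, of which 3 were brighter on both arrays, 4 dimmer on both and 3 of differing sign. Kcne1l, an X-linked relative of Kcne1, had 7318 and 7570 in the channels labelled Smad4cKO and 6456 and 6567 in the channels labelled control, or 0.18 and 0.21. Its other probe gave 0.35 and -0.0027. Kcne3, a partner of Kcnq1 in epithelia, gave 0.04 and -0.65, while its other probe gave -0.28 and -0.36, so the probes disagreed on array 1. Kcne4 gave -0.12 and 0.04, and the cytoplasmic beta subunits Kcnab1 and Kcnab3 gave -0.29 and -0.12, and -0.08 and -0.02. Across the 13 partner genes outside the Kcn names, 9 were tested, with 2 brighter on both arrays, 5 dimmer on both and 2 of differing sign. Those not tested included Hcn4, Lrrc26 and Lrrc52, and the brighter ones were the pacemaker channel genes Hcn2 (0.04 and 0.09) and Hcn3 (0.05 and 0.08).

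**Figure D4:**
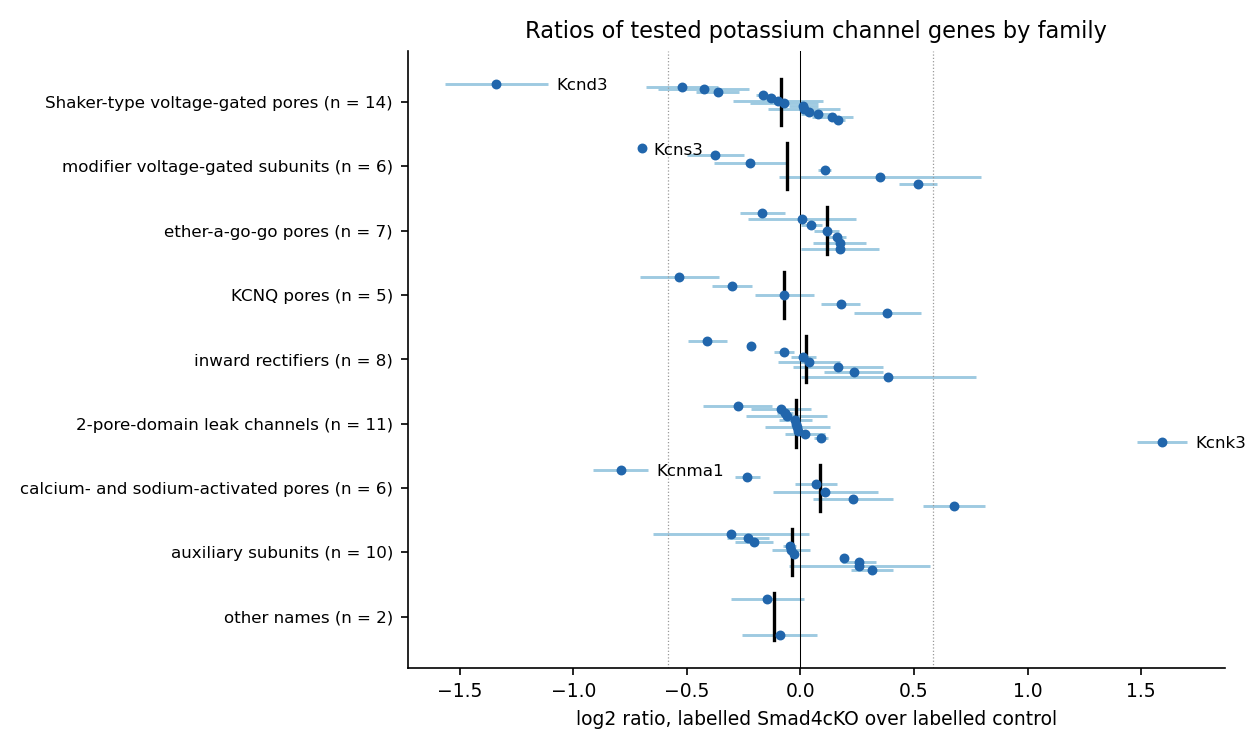
Mean log2 ratio of the channel labelled Smad4cKO over the channel labelled control (horizontal axis) for each tested potassium channel gene by family (vertical axis), with a line from the array 1 to the array 2 value, black bars for family medians and dotted lines at 1.5-fold. Family medians lie between -0.12 and 0.12, while Kcnk3, Kcnd3, Kcnma1 and Kcns3 lie beyond the dotted lines on both arrays.

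The marker lists of 2 cell groups differed between the channels beside these values. Of 12 smooth muscle markers 11 were tested and 10 were brighter on both arrays in the channel labelled Smad4cKO, all but Synpo2, with Lmod1 not tested. Their summed intensity was 105400 and 124700 in the channels labelled Smad4cKO and 72450 and 70830 in the channels labelled control, and 7 of them passed 1.5-fold brighter on both arrays. Sums of intensity, here and below, count the brightest probes most. Of 20 neuronal and glial markers, all tested, 15 were dimmer on both arrays, 2 brighter on both and 3 of differing sign, with 3 dimmer at 1.5-fold. Their summed intensity was 37090 and 37450 in the channels labelled Smad4cKO and 49240 and 41220 in the channels labelled control. Lmod1 was not well above background, while all other markers of both lists were. Many Kcn genes are used by both muscle and nerve, and the part of these cell groups in the potassium channel ratios was not tested. The other marker lists had medians between -0.09 and 0.18, with 0 genes of the urothelial, ureteric mesenchyme, endothelial and macrophage lists past 1.5-fold on both arrays and 1 kidney marker, Wt1, dimmer.

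The 4 genes past 1.5-fold on both arrays were compared under each processing alternative. Kcnk3 kept log2 ratios between 1.48 and 1.99, Kcnd3 between -1.57 and -1.11, Kcnma1 between -0.91 and -0.64 and Kcns3 between -0.74 and -0.69, single arrays included. With the mean of a gene's tested probes, 2 genes were dimmer at 1.5-fold on both arrays in place of 3, since Kcnma1 then stayed just short of the rule on array 2. Just inside the rule lay Kcnma1, whose smaller ratio was 0.67 in size, and Kcns3 with 0.69. Just outside lay Kcnt2 with 0.54 and Kcnv2 with 0.43. Limma called Kcnk3 and Kcnd3 with normexp at an offset of 10, processed signals, the authors' deposited table, an intensity trend with robust empirical Bayes, and separate channels. Kcnma1 and Kcnv2 were called with processed signals as well as with the intensity trend.

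**Figure D5:**
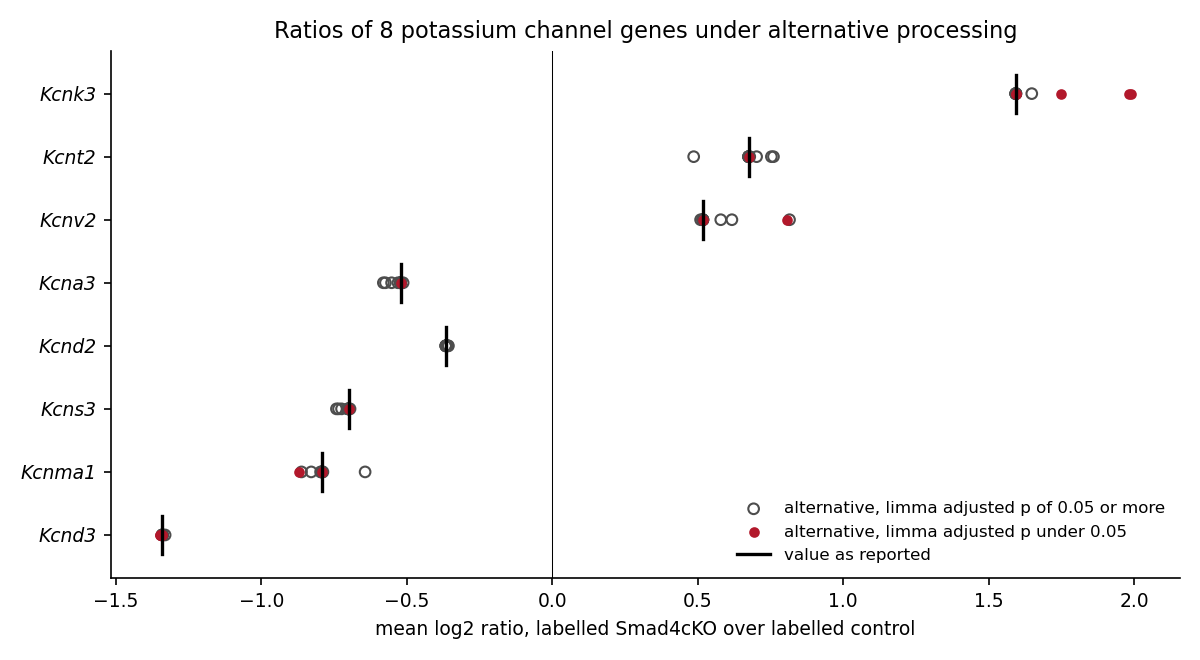
Mean log2 ratio of the channel labelled Smad4cKO over the channel labelled control (horizontal axis) of 8 potassium channel genes, as reported (black bar) and under each alternative fitted on both arrays (circles, red where limma's adjusted p was under 0.05). Every gene keeps its sign, and Kcnk3 spreads from 1.59 to 1.99.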

How the data were processed

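Per the file headers, the deposited scanner files hold an intensity per spot and channel and a log10 ratio of red over green. The submitters' processing notes name Agilent Feature Extraction, version 10.7.3.1. In the authors' deposited table the values are a signed fold, here treated as a score, whose direction was found against the scanner signals. Both arrays lay on 1 slide with 1 scan.

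Mean signals were corrected with normexp (offset 50) and normalized within arrays by loess (limma 3.58.1, statmod 1.5.0, data.table version 1.17.8, R 4.3.3). Control spots (1377) and outlier spots (237 and 221) were left out. Printed intensities are these normalized channel values and hold the offset, so levels of different probes are not compared. Log2 ratios were set against 0 for 21238 genes (limma, Benjamini-Hochberg, threshold 0.05), with 1 residual and 4.89 prior degrees of freedom. The SE therefore rests mostly on the spread pooled over genes. Symbols follow RefSeq accessions (126 of 136 Kcn probes matched) or else the files' names. The procedure was tested on simulated data. Figures used Python 3.11.15, pandas 2.3.3 and matplotlib 3.10.9.

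The members and lists were chosen with earlier results of these data known. Genes named by rule were those past limma, those at 1.5-fold on both arrays in the same or opposite directions, and up to 10 more per direction with 1 sign on both arrays, ordered by the smaller log2 ratio. This gave 24 genes, some of which are not reported here. Other genes are named as members of a family or complex, chosen after their values were seen. Alternatives covered background correction, normalization, the signal used, the filter, outlier spots, the probes of a gene, the variance model, separate channels and each array alone.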

Additional observations from a re-analysis of the deposited data

Results flagged for a closer look

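In 3 potassium channel genes the female pair (array 1) and the male pair (array 2) had opposite signs and log2 ratios that differed by at least log2 of 1.5. The difference is array 1 minus array 2, was not tested because each sex has 1 array, and sex and dye orientation cannot be told apart. Signs differed in 23 of the 69 tested potassium channel genes and in 60.3% of all tested genes. How many of all tested genes met the rule used here was not counted. Kcnv1, a modifier of voltage-gated pores, differed by 0.89, with 276 and 206 in the channels labelled Smad4cKO and 159 and 220 in the channels labelled control. Kcne3 differed by 0.69 with the probe that stands for it (4089 and 3070 in the channels labelled Smad4cKO, 3982 and 4812 in the channels labelled control), while its other probe gave -0.28 and -0.36. Kcnmb1, the smooth muscle BK subunit, differed by -0.62, with 274 and 339 in the channels labelled Smad4cKO and 283 and 228 in the channels labelled control.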

How the results depend on the processing

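None of the 24 named genes changed sign under any setting. Limma's 0 brighter and 0 dimmer potassium channel genes became 1 and 1 with normexp offset 10, 2 and 3 with processed signals, 1 and 1 with the authors' deposited table, 4 and 7 with an intensity trend in robust empirical Bayes, and 1 and 1 with separate channels, no replicate block. All tested genes moved too, to 35 brighter and 31 dimmer with offset 10, 143 and 160 with processed signals, 72 and 77 with the authors' table, 298 and 407 with the trend and 13 and 19 with separate channels. Without background subtraction, with median centring, with the stricter filter, with no filter, with outlier spots kept, and with gene means over probes or each probe singly, limma called 0 potassium channel genes. The 1 gene at 1.5-fold brighter became 3 with processed signals, 3 with the authors' table and 2 with median centring. The 3 dimmer genes became 5 with processed signals, 5 with the authors' table and 2 with gene means over probes, where Kcnma1 dropped out. With each probe singly, 4 probes passed as dimmer, each belonging to Kcnd3, Kcns3 or Kcnma1. On 1 array alone the counts ran from 1 to 5 brighter and from 4 to 6 dimmer, both highest on array 1 (without replicate 2), with no residual degrees of freedom and so no test. For these 1.5-fold counts under other settings, the matching shares of all tested genes are not given. No other paired analysis was possible because each array already holds its pair. The cause of these changes was not tested. The number of arrays, 2, limits the precision, and Kcnf1 and Kcnj12 were not well above background in every channel.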
